A study of Mus musculus with 4 samples.

Results

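Regulators of G protein signalling (RGS proteins) are a gene family of which 10 members, Rgs2, Rgs3, Rgs4, Rgs5, Rgs10, Rgs12, Rgs14, Rgs16, Rgs17 and Rgs19, were followed here on 4 microarrays of Hepa1c1c7, an established line of mouse hepatoma cells. The 10 genes are among 18217 gene symbols with a named probe. Their probes were picked by the RefSeq transcript each probe is named for, which gave 18 probes, and every probe and array is accounted for below. The family was chosen by its DEM against DMSO differences on these same arrays, since the difference of Rgs16 was already known, so the members' differences are described and no p-value is given for them.

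Each of the 2 groups holds 2 RNA samples at 6 hours. One group was exposed to 100 µM diethyl maleate (DEM), a thiol-reactive compound that the series title calls an activator of NRF2, the transcription factor of antioxidant genes, and the other to the solvent dimethyl sulfoxide (DMSO). Both groups are of 1 cell line with no genetic change named. The labels call the samples independent RNA without saying that they came from separate cultures, so standard errors and p-values rest on a spread that could be purely technical. All 4 arrays lay on 1 slide with 1 scan time, so neither separates the groups. The labels' RNA extraction text speaks of liver, while the other labels name the cell line.

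A ligand-bound receptor loads the G protein alpha subunit with GTP, and alpha and the beta-gamma pair then act on enzymes and channels. RGS proteins speed up the hydrolysis of that GTP and so end the signal. Members of the R4 group are mostly small proteins built around the RGS domain, those of the R12 group include multidomain scaffolds, and those of the RZ group act on alpha subunits of the Gi class, Gz among them.

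The scanner software marked 20746 to 21665 of the 41174 probes (50.4% to 52.6%) per array as well above background, and it marked no spot as saturated. The hepatoma markers Afp, Alb, Krt8 and Krt18 gave strong signals on all 4 arrays (Afp 52200 to 69000), while Hnf4a, Ttr, Apoa1, Foxa1, Foxa3, Fgb and Tat missed the detection filter described next. Foxa2 gave 8980 and 8490 in DMSO and 12400 and 12100 in DEM, and Trf gave 2040 to 3450. Over the 15 hepatocyte and hepatoma markers with a probe, of 16 listed, the summed signal was 409106 to 449692 in DMSO and 441656 to 453937 in DEM. Most of it came from the keratin genes Krt8 (205000 to 227000) and Krt18 (134000 to 142000). Weak signals came from Apoa2 (31.6 to 46.1) and from Apob (14.4 and 3.46 in DMSO, 52.7 and 119 in DEM). A gene was tested where a probe was well above background on at least 2 arrays, which left 15540 genes, and its difference is that of its brightest probe. Of these, 110 (0.708%) were called higher and 79 (0.508%) lower in DEM at a limma adjusted p under 0.05 (Benjamini-Hochberg). Of the 8 hepatocyte and hepatoma markers tested, 0 were called. By unadjusted limma p under 0.05, 3 of them were higher and 0 lower, against 9.02% and 10.2% of all genes. Of the 10 RGS genes, 5 were tested, namely Rgs3, Rgs10, Rgs12, Rgs14 and Rgs16. Among those 5, 1 was past the threshold of adjusted p on the lower side, Rgs16, and 0 on the higher side. In 1 of the 5 both DEM arrays lay above both DMSO arrays, as in 24.9% of all genes tested, and in 3 of the 5 both lay below, as in 25.6% of all genes. Rgs14, 1 of those 3, passed the filter through its DMSO arrays alone, which fixed its direction. Nothing is read from these counts, since the family was chosen with the comparison known.

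The upstream sequences of Rgs16 and Rgs10 are shown because these genes had the largest differences in each direction among members detected on all 4 arrays. RefSeq promoter entries (build GRCm38.p6) matched 9 of the 10 members, with 13 start sites, and Rgs14 had none. The Rgs16 window lies at chr1:153740103-153740352 on the + strand and the Rgs10 window at chr7:128418173-128418422 on the - strand. Each gives the 250 bases before the start, 5′ to 3′, and capitals mark a CCAAT box (CCAAT) or a GC box (GGGCGG) on either strand.
Rgs16: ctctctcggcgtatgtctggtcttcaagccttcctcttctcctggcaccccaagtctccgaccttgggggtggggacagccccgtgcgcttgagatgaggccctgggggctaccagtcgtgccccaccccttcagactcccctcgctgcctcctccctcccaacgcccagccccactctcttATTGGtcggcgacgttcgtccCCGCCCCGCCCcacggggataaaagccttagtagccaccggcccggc
Rgs10: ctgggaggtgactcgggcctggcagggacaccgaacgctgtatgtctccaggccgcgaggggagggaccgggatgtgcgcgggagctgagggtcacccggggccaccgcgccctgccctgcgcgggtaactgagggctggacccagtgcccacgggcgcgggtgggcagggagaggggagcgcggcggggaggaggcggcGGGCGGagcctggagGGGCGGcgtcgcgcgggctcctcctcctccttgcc

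The Rgs16 window held 1 CCAAT box, 64 to 68 bases before the start, and 2 GC boxes that share 1 base, and its GC content was 66.4%. The Rgs10 window held 2 GC boxes and no CCAAT box, with a GC content of 76.4%. Over all 32851 promoter entries of this length, 33.8% held a CCAAT box and 32.7% a GC box, and the median GC content was 52.4%. Neither window held the letters of an NF-kB site (found in 3.9% of all windows) or of an AP-1 site, TGANTCA (6.75%). Nor did either hold the antioxidant response element core, TGACNNNGC (10.2%), the cAMP response element, TGACGTCA (1.55%), an E-box, CACGTG (6.02%), or a TATA box, TATAAA (12.4%). Among the other members, 1 start of Rgs12 held the antioxidant response element core at 134 to 142 bases before the start, another start of Rgs12 held an AP-1 site, and so did Rgs17. The letters of a TATA box stood in both Rgs3 windows, at 95 to 100 and at 172 to 177 bases before the start. They also stood in the Rgs4 window, at 26 to 31 bases. These matches are letters within a window and were not tied to binding.

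Rgs16 had the largest difference. It belongs to the R4 group, acts on alpha subunits of the Gi and Gq classes and is known as a gene induced by inflammatory signals. Its probe gave processed signals (background-subtracted intensities) of 312 and 349 on the DMSO arrays and 84.5 and 82.9 on the DEM arrays, well above background on all 4. Both DEM arrays were below both DMSO arrays, and the arrays of a group lay close together. After scaling of each array, Rgs16 was 4.06-fold lower in DEM (log2 difference −2.02 ± 0.11, SE, n = 2 arrays per group). The gap between the groups' closest arrays was 1.90 on the log2 scale, against 0.21 between the DMSO arrays and 0.02 between the DEM arrays. Rgs16 lost its place past the threshold when either DMSO array was left out, or when dim probes were not filtered, and in each of these fits 0 genes passed at all. By unadjusted limma p under 0.05, 984 genes were then higher and 1132 lower without DMSO replicate 1. The counts were 845 and 1170 without DMSO replicate 2. The log2 difference of Rgs16 was −2.13 without the first DMSO array and −1.91 without the second. In a sample of many cells, fewer cells with a transcript and less of it per cell cannot be told apart.

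The 5 named genes closest to Rgs16 in their pattern over the 4 arrays were Meis1, Bcl3, Cxcl10, Ccl7 and Aspa, out of 10543 genes compared. Likeness was the root mean square difference in log2 level after each gene's mean was subtracted, and it ran from 0.12 for Meis1 to 0.30 for Aspa. Meis1, a homeobox transcription factor, gave 57 and 64.1 in DMSO and 18.9 and 16.5 in DEM. Bcl3, a cofactor of NF-kB, gave 3590 and 3760 in DMSO and 1060 and 1280 in DEM. With 4 arrays this measure mostly finds genes with a difference of similar size, and nothing is read from it about control.

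Leukocyte markers were set beside Rgs16, a gene also known from lymphocytes. Of 8 such genes, 4 and 3 were well above background on the DMSO arrays and 3 and 2 on the DEM arrays. Their summed signal was 1760 to 1861 in DMSO and 1204 to 1490 in DEM, most of it from Cd14 (1770 and 1610 against 1420 and 1140). Cd3e (25.6 to 33.3) and Cd74 (12.7 to 29.1) were dim. All 3 markers tested had a lower mean in DEM and 0 were called. By unadjusted limma p under 0.05, 0 were higher and 2 lower, against 9.02% and 10.2% of all genes. Ptprc, which encodes CD45, Cd52, Lyz2, Adgre1 and Cd79a missed the filter. The part of these markers in the Rgs16 difference was not tested.

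**Figure D1:**
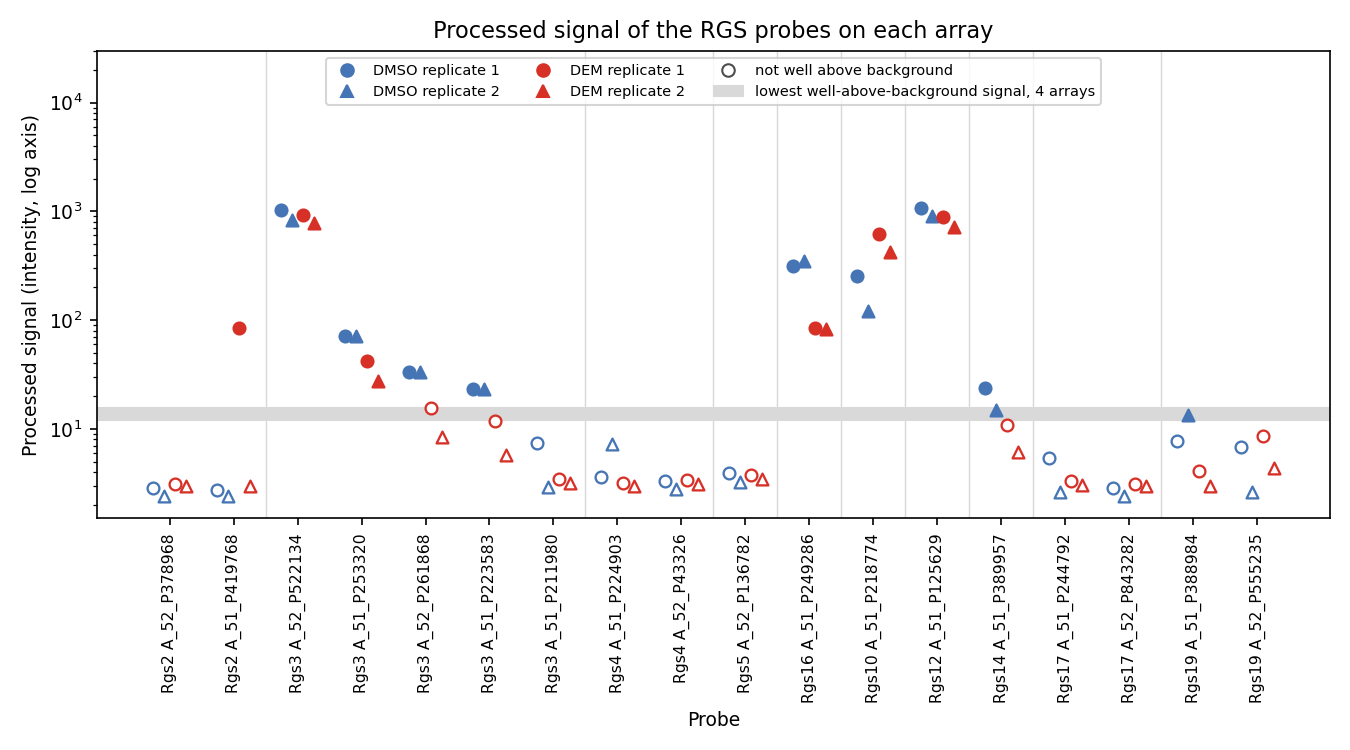
Processed signal of all 18 RGS probes (log axis) on each of the 4 arrays, DMSO in blue and DEM in red, with open symbols where a spot was not well above background. Rgs16 reads 312 and 349 in DMSO and 84.5 and 82.9 in DEM, Rgs10 is higher on both DEM arrays, and 8 probes are open on every array.

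Rgs3 is the R4 member with the most probes, and they did not show the same difference. It acts on Gi and Gq alpha subunits and is known for several transcripts that differ in length. The brightest probe, A_52_P522134, gave 1040 and 837 in DMSO and 917 and 780 in DEM. These groups overlapped after scaling, with a log2 difference of −0.18 ± 0.14 (SE, n = 2 arrays per group). A_51_P253320 gave 71.5 and 70.8 in DMSO and 41.6 and 27.7 in DEM, all well above background and without overlap, which is 2.16-fold lower (−1.11 ± 0.22).

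A pair of dimmer probes of Rgs3 were well above background only on the DMSO arrays. A_52_P261868 gave 33.5 and 33.4 in DMSO against 15.6 and 8.47 in DEM, with a bound of 2.27-fold lower. A_51_P223583 gave 23.1 and 23.4 against 11.7 and 5.75, with a bound of 1.58-fold lower. The filter fixed the direction of both probes. A bound of this kind sets the DMSO mean against, per DEM array, the higher of the probe's own signal and the lowest signal well above background, which was 12 to 15.7 over the arrays. It makes no allowance for scanner error and belongs to this background correction alone. The fifth probe, A_51_P211980, named for another Rgs3 transcript, was not well above background on any array (2.89 to 7.38).

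The 4 detected probes are named for 1 transcript accession, NM_134257. Within each array, the level of A_51_P253320 relative to the brightest probe was −3.86 and −3.56 on the log2 scale in DMSO and −4.46 and −4.82 in DEM. So the relative level of this probe was lower on both DEM arrays than on both DMSO arrays. No such level is given for A_52_P261868 and A_51_P223583, which passed the filter through the DMSO arrays alone and have no reading well above background in DEM. Where these probes lie along the gene is not given in the sources used here.

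The background correction moved the difference of A_51_P253320, which was −0.42 after normexp, whose offset shrinks changes of dim probes by construction. A_52_P261868 and A_51_P223583 were at −0.43 and −0.31 after normexp, short of their bounds. DEM replicate 2 was lower than DEM replicate 1 for A_51_P253320. Leaving out DEM replicate 2 gave −0.84, and leaving out DEM replicate 1 gave −1.38. Over the 4039 probes tested with a DMSO level of −4.80 to −2.88 on the log2 scale, the median difference was −0.11. The middle 50% lay between −0.34 and 0.11. A_51_P253320, at −2.88 in DMSO, stood at the bright edge of this range, so the range is not matched to its level. The part of signal level in the Rgs3 values was not tested.

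**Figure D2:**
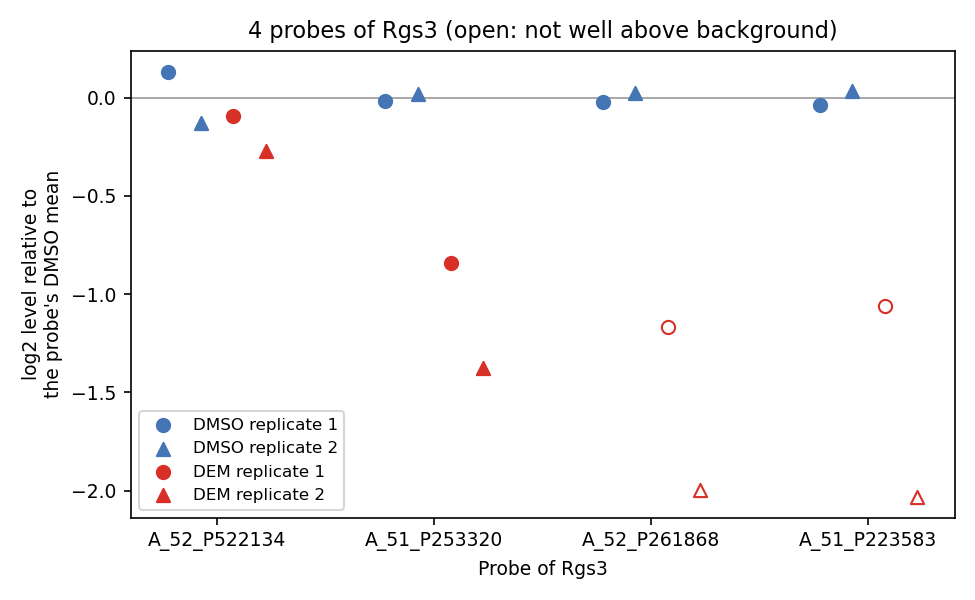
log2 level of each Rgs3 probe relative to its own DMSO mean, on the 4 arrays, for the 4 probes that were well above background on at least 2 arrays; open symbols were not. The brightest probe, A_52_P522134, stays near 0 in DEM while A_51_P253320 lies below it on both DEM arrays. The other 2 probes are open in DEM, so the size of their shift was not measured.

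The other R4 members gave little or no signal. Rgs2, which prefers the Gq alpha subunit, had a single spot well above background. Its probe A_51_P419768 read 84.3 (scanner error 8.99) on DEM replicate 1 and 2.75, 2.4 and 3 on the other arrays. That spot had a raw median of 135 over a local background of 33 and carried no outlier flag. The second Rgs2 probe, A_52_P378968, read 2.43 to 3.13 and was not well above background on any array, DEM replicate 1 included. Rgs2 therefore had 1 reading on 1 array that its other probe did not share, and no difference is given for it. Among all 41174 probes, 1825 (4.43%) were well above background on exactly 1 array.

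Rgs4, known from neurons and heart, read 2.8 to 7.24 over its 2 probes, and Rgs5 read 3.26 to 3.94 on its 1 probe. Rgs5 is known as a marker of pericytes, the mural cells of small vessels. None of the readings of these genes was well above background, so these arrays set no direction for them. Of 10 mural and smooth muscle markers, 6 and 5 were well above background on the DMSO arrays and likewise 6 and 5 on the DEM arrays, with summed signals of 8082 to 8644 and 8556 to 8644. Most of each sum came from Acta2 (5490 to 6050), a smooth muscle actin. Kcnj8, a potassium channel gene known from pericytes, gave 561 and 436 in DMSO and 291 and 187 in DEM, a log2 difference of −1.13 ± 0.24 (limma adjusted p = 0.118). Of the 6 mural markers tested, 5 had a lower mean in DEM and 0 were called. By unadjusted limma p under 0.05, 0 were higher and 1 lower, against 9.02% and 10.2% of all genes. Among the 5 with a lower mean, Acta2, Des and Abcc9 overlapped between the groups. The 1 with a higher mean was Pdgfrb, which gave 1840 and 1960 in DMSO and 2270 and 2450 in DEM. Its groups did not overlap (log2 difference 0.27 ± 0.11, limma adjusted p = 0.29). Over all genes tested, both DEM arrays lay above both DMSO arrays in 24.9% and below both in 25.6%. Myh11, Cnn1, Cspg4 and Notch3 were not tested. Of 7 endothelial markers 1 was detected, and their summed signal was 79.1 to 86.1 in DMSO and 73.3 to 78.8 in DEM.

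In the R12 group, Rgs10 was higher in DEM. It encodes a small RGS protein that acts on Gi alpha subunits and is known from microglia and other immune cells. The probe gave 255 and 121 in DMSO and 614 and 421 in DEM, all well above background, and both DEM arrays were above both DMSO arrays. Rgs10 was 2.81-fold higher (log2 difference 1.49 ± 0.39, SE, n = 2 arrays per group). Its DMSO arrays stood apart by 1.02 on the log2 scale, the widest gap between DMSO arrays among the members tested, and the closest arrays of the groups by 0.73. Leaving out DMSO replicate 2 gave a difference of 0.98, and leaving out DMSO replicate 1 gave 2.0. Rgs10 was not past the threshold over all genes. It passed under median scaling, which moved the median difference of all genes from −0.01 to 0.14, and under scaling on spike-in probes. The spike-in fit gave a smallest limma adjusted p over all genes of 1.1e-71 from 2 arrays per group, so nothing is read from passing it.

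Rgs12 encodes a large scaffold protein that also carries a GoLoco motif, which holds Gi alpha subunits in the GDP-bound state. Its probe gave 1070 and 911 in DMSO and 883 and 725 in DEM. The groups did not overlap after scaling, but the gap between their closest arrays, 0.14 on the log2 scale, was smaller than that between the DMSO arrays (0.18) or the DEM arrays (0.23). The log2 difference was −0.34 ± 0.13, and −0.20 under median scaling.

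Rgs14, a scaffold that joins RGS, Ras-binding and GoLoco domains, was near the detection limit. Its probe gave 23.5 and 14.9 in DMSO, both well above background, and 10.9 and 6.18 in DEM, neither of them. The bound for Rgs14, with no allowance for scanner error (2.99 on DMSO replicate 2), was 1.27-fold lower in DEM. After normexp the log2 difference was −0.28, short of that bound. No exact difference is given from the processed signal, since the DEM readings were not well above background and the filter fixed the direction.

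In the RZ group, Rgs17 read 2.43 to 5.42 over its 2 probes and was not well above background on any array. Rgs19, also known as GAIP, had 1 of 8 readings well above background, 13.4 on DMSO replicate 2 for A_51_P388984. The same probe read 7.72 on DMSO replicate 1 and 4.1 and 3 in DEM, and the second probe, A_52_P555235, read 2.62 to 8.55. Neither gene was tested.

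**Figure D3:**
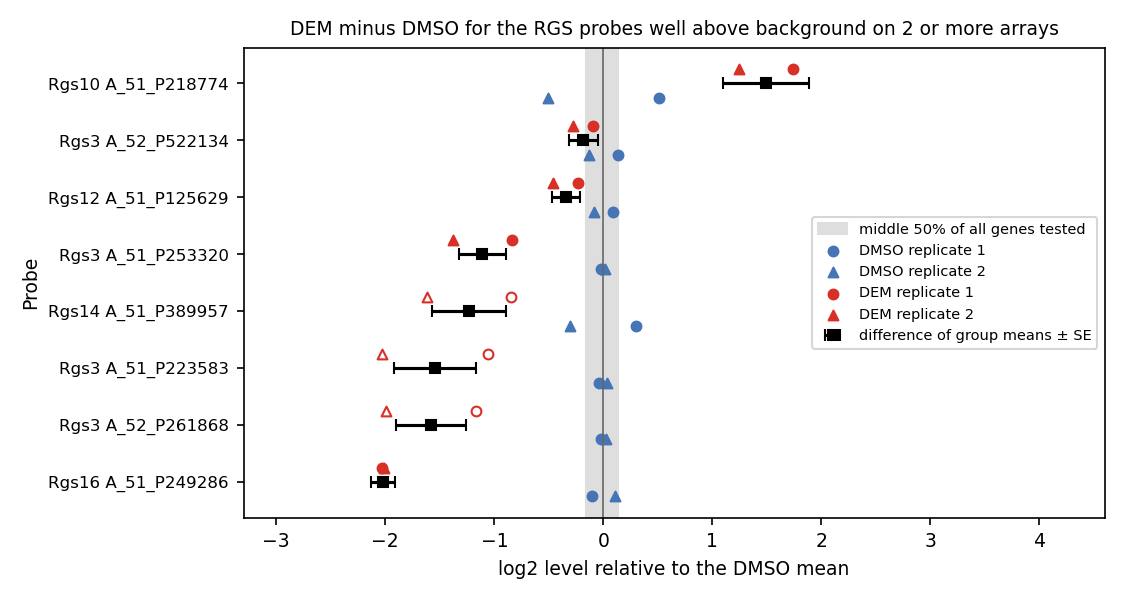
DEM minus DMSO on the log2 scale for the 8 RGS probes well above background on at least 2 arrays, with squares for the difference of group means, bars for 1 SE, and each array's level relative to the DMSO mean. Rgs16 sits at −2.02 with its arrays close together, Rgs10 at 1.49 with its DMSO arrays apart, and the grey band holds the middle 50% of all genes tested. Rgs14 and 2 of the Rgs3 probes were not well above background in DEM, so their squares give no measured size.

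Counted by probe, 5 of the 18 RGS probes were well above background on all 4 arrays, 3 on both DMSO arrays and neither DEM array, 2 on exactly 1 array and 8 on none. Of the 8 probes that passed the filter, 7 had a lower mean in DEM, 4 of them Rgs3 probes, which share a gene and are not separate findings. A probe that passed only through the DMSO arrays had to be lower in DEM, which holds for 2 of the Rgs3 probes and for Rgs14. The arrays also held probes of 11 other genes named Rgs, binding proteins of Rgs7 and Rgs9 among them, and 0 of these genes were tested.

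The rest of the G protein machinery was set beside the RGS genes through 7 lists of 142 genes, of which 136 had a probe and 75 were tested. Of these 75, 1 was called higher and 0 lower over all genes tested, against 0.708% and 0.508% of all genes. By unadjusted limma p under 0.05, 10 were higher and 8 lower, and over all 15540 genes the shares by that measure were 9.02% higher and 10.2% lower. The counts of each list by that measure stand against these shares. The median log2 difference of the 75 was 0.04, against −0.01 for all genes. The lists were put together with earlier results of these arrays known.

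The called gene was Gng4, a gamma subunit. It gave 65.8 and 59.7 in DMSO and 141 and 122 in DEM, without overlap, and rose 2.03-fold (log2 difference 1.02 ± 0.10, limma adjusted p = 0.0437). It lost the call under quantile normalization (limma adjusted p = 0.0524), with no filter on dim probes, and without any 1 of the 4 arrays (limma adjusted p = 0.0708 to 0.256). The difference was 0.57 after normexp, where Gng4 kept the call (limma adjusted p = 0.0199). Gng4 was called in 10 of 16 alternatives. The other 8 beta and gamma subunits tested were not called and lay between −0.25 and 0.12.

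The alpha subunits, on which RGS proteins act, had 0 of 8 called (1 higher and 1 lower by unadjusted limma p under 0.05), with a median of −0.03. Gna15, a Gq class subunit of blood and other cells, had the largest difference (−0.33 ± 0.09, limma adjusted p = 0.179), with signals of 95.1 and 85.6 in DMSO and 72.9 and 74.6 in DEM. Gnai2 and Gnai3, alpha subunits of the Gi class, had log2 differences of −0.14 and 0.21 (limma adjusted p = 0.476 and 0.352). Gnaq of the Gq class had 0.28 (limma adjusted p = 0.463).

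Other genes with an RGS or related domain, such as the axins and the receptor kinases, had 0 of 12 called (0 higher and 0 lower by unadjusted limma p under 0.05), with a median of 0.08. The largest difference was in Axin2, a scaffold of Wnt signalling (−0.48 ± 0.21, limma adjusted p = 0.318). Its DMSO arrays read 472 and 308, and the difference was −0.19 without the first of them and −0.76 without the second. The 8 GoLoco and other regulators had 0 called by either measure and a median of −0.01, with Gpsm3 lowest (−0.32 ± 0.18, limma adjusted p = 0.408).

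Of 15 effectors tested, 0 were called (2 higher and 3 lower by unadjusted limma p under 0.05), with a median of 0.04. Pde4b, a phosphodiesterase that breaks down cAMP, gave 172 and 156 in DMSO and 115 and 92.5 in DEM (−0.71 ± 0.12, limma adjusted p = 0.0881), and passed after normexp or with an intensity trend in the variance. A second probe of Pde4b gave −0.48. Prkar2b, a regulatory subunit of protein kinase A, had the highest difference of the list (0.66 ± 0.16, limma adjusted p = 0.148).

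Of 13 receptors tested, 0 were called (1 higher and 4 lower by unadjusted limma p under 0.05), and the median was −0.22. Adra1a, the alpha-1A adrenergic receptor, had the largest difference at low signals, 14.6 and 13.7 in DMSO and 22.7 and 37.6 in DEM (1.01 ± 0.28, limma adjusted p = 0.175), which was 0.14 after normexp. Without DEM replicate 1 it was 1.40 and past the threshold, and without DEM replicate 2 it was 0.61. Adgrg1, an adhesion receptor, had −0.74 ± 0.11 (limma adjusted p = 0.0709). P2ry2, a nucleotide receptor that couples to Gq, had −0.55 ± 0.11 (limma adjusted p = 0.112), and S1pr1, a Gi-coupled receptor of sphingosine 1-phosphate, had −0.52 ± 0.14 (limma adjusted p = 0.167).

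Of 10 genes of cAMP and CREB signalling tested, 0 were called and the median was 0.29, with 8 above 0 and 2 below. At an unadjusted p under 0.05 in limma, 5 were higher and 0 lower. Nr4a1, an immediate early nuclear receptor, gave 4800 and 4320 in DMSO and 6780 and 12400 in DEM (0.97 ± 0.32, limma adjusted p = 0.226). Its difference was 1.43 without DEM replicate 1, where it passed the threshold, and 0.51 without DEM replicate 2. Crem, a cAMP-responsive transcription factor, had 0.73 ± 0.14 (limma adjusted p = 0.101), and Creb1 had 0.64 ± 0.10 (limma adjusted p = 0.0717). Fos (0.01) and Ppargc1a (0.07), both counted among the 8 above 0, overlapped between the groups. The 2 below 0 were Sik1 (−0.26) and Crtc2 (−0.06).

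**Figure D4:**
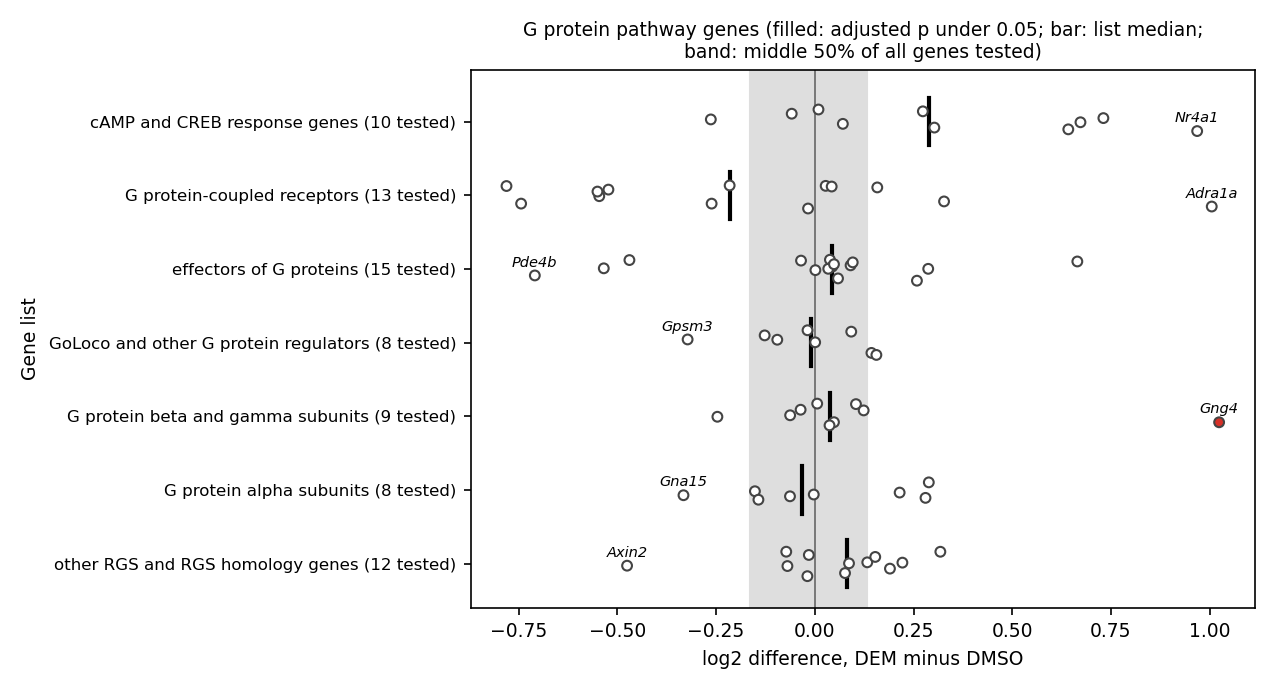
log2 difference, DEM minus DMSO, of the 75 G protein pathway genes tested, by list, with a black bar at each list's median and a grey band for the middle 50% of all genes. Gng4, at 1.02, is the only filled point (limma adjusted p under 0.05), and most alpha, beta and gamma subunits lie near 0.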

How the data were processed

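The data are 4 Agilent 1-colour mouse arrays, 2 of DMSO and 2 of DEM, labelled with Cy3 per the labels' protocols. Per the file headers, Feature Extraction 10.7.3.1 made the deposited values, which are background-subtracted spot intensities on a linear scale, with flags for detection, saturation and outliers. The deposited value table held the same intensities, equal at all 45018 spots of each array. Groups and replicate numbers came from the sample titles.

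From the processed signal, log2 was taken and each array's 75th percentile over 43379 non-control spots subtracted. Outlier spots were dropped and spots of a probe averaged. Probes were named by accession through a RefSeq table of GRCm38.p6, for names alone (26690 of 41174 probes received 1 symbol). Genes well above background on at least 2 arrays were fitted with limma 3.58.1 in R 4.3.3 (lmFit and eBayes), with Benjamini-Hochberg adjustment over all 15540 genes. In 20 simulated sets with the 15540 genes of this comparison, 200 genes were changed exactly 2-fold or 4-fold, with a spread fitted to these arrays. Of these changes, 44.7% of the 2-fold and 89.2% of the 4-fold were recovered. That spread could be purely technical and recovery depends on the changes planted, so these shares are not the power of the design. Precision is limited by the number of arrays. Alternatives changed the background correction, the scaling, the filter, the probe rule, the variance model, the replicate block and the arrays used. The promoter windows leave out the bases after the start.

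The members, lists and alternatives were chosen with earlier results of these data known. Named are every member, up to 3 called genes of each list or otherwise the one with the largest difference, and 5 genes like Rgs16. Named after their values were seen were Adgrg1, P2ry2, S1pr1, Prkar2b, Gnai2, Gnai3, Gnaq, Crem, Creb1, Fos, Ppargc1a, Sik1 and Crtc2. So were the markers Kcnj8, Pdgfrb, Des, Abcc9, Foxa2, Trf, Apoa2, Apob, Cd3e and Cd74.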

Additional observations from a re-analysis of the deposited data

How the results depend on the processing

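Over the 16 alternatives the log2 difference of Rgs16 ran from −2.13 to −1.52, that of Rgs10 from 0.98 to 2.0 and that of Rgs12 from −0.46 to −0.20. Rgs3 ran from −1.10, with the mean of its probes, to −0.04 under median scaling. That mean takes in A_52_P261868 and A_51_P223583, which had no reading well above background in DEM, so −1.10 is not a measured size.

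The number of genes called, 189, became 807 after normexp, 93 under quantile normalization, 567 under median scaling, 570 under spike-in scaling, 0 with no filter on dim probes, 426 with a filter on all 4 arrays, 726 with an intensity trend and 882 with robust fitting added. It ran from 0 to 121 with 1 array left out. Higher calls made up 58.2%, against 71.3% under median scaling and 34.7% under spike-in scaling.

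The 1 member called became 2 under median scaling, 3 under spike-in scaling, 2 with the replicate number as a block (143 genes in all), 0 with no filter, and 0 to 1 with 1 array left out. The second under the block was Rgs14, whose direction the filter had fixed, and Rgs14 was also among the 3 under spike-in scaling. The 1 pathway gene called became 7 after normexp, 0 under quantile normalization, 4 under median scaling, 3 under spike-in scaling, 0 with no filter, 3 with a filter on all 4 arrays, 5 with a trend, 7 with robust fitting, and 0 to 2 with 1 array left out. With no filter, 1246 genes were higher and 1919 lower by unadjusted limma p under 0.05. The cause of these changes was not tested. Arrays sharing a replicate number deviated together only weakly (r = 0.14 over 15540 genes), and the labels name no pairing beyond that number. Normexp used the median spot signal.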

Other observations

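Rgs7, outside the 10 genes, had 1 reading well above background, 99.2 (scanner error 10.5) on DMSO replicate 1, against 2.86 to 3.37 on the other arrays. It thus showed the same kind of single-array reading as Rgs2 on DEM replicate 1.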
